A study of Mus musculus with 8 samples.

Results

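The genes described here build, modify and carry heparan sulfate, or belong to the wider family of carbohydrate sulfotransferases. They were chosen by name: every entry of the deposited tables whose symbol is that of a glypican (Gpc1 to Gpc6), a syndecan (Sdc1 to Sdc4), a linkage-region, polymerizing, epimerizing or sulfating enzyme of heparan sulfate, an extracellular editor of the finished chain (Sulf1, Sulf2, Hpse), a numbered Chst sulfotransferase, Ust, or a glucuronyltransferase of the B3gat family. The rule used no measured value. It found 55 genes among the 23699 entries of each table, and all 55 had a usable estimate in all 8 libraries. RNA was measured in mouse embryonic stem cells (mESC, the naive state) and mouse epiblast stem cells (mEpiSC, the primed state), with 4 libraries of each. The mESC grew in 20% serum replacement with LIF at 1000 units/ml, and were the lines ESF122 (mESC 1 and 2) and ESF175/1 (mESC 3 and 4). The mEpiSC grew in 20% serum replacement with FGF2 at 10 ng/ml, and were the lines EpiSC5 (mEpiSC 1), EpiSC7 (mEpiSC 2 and 3) and EpiSC9 (mEpiSC 4). All lines shared a feeder layer of irradiated mouse embryonic fibroblasts, from which the cells were separated before RNA extraction. State, medium and passaging method changed together, so they cannot be told apart.

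Heparan sulfate is a linear sulfated polysaccharide attached to core proteins, chiefly the glypicans, which sit on the outer membrane by a lipid (GPI) anchor, and the syndecans, which span the membrane. A tetrasaccharide linker is built on a serine of the core, the chain is polymerized, and enzymes of the Golgi then remove acetyl groups, add sulfates and epimerize uronic acids, so that the chain gains binding sites for FGFs, Wnts, BMPs and other ligands. FGF binds its receptor together with heparan sulfate, and mESC that cannot make or sulfate the chain respond poorly to FGF and are impaired in leaving the naive state. Members of the Chst family outside the heparan sulfate pathway add sulfate to keratan sulfate, chondroitin and dermatan sulfate or other glycans.

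Each value is the authors' FPKM, a fragment count scaled to transcript length and to the mapped fragments of the library, which allows levels to be compared between genes. The depth implied by the values and their intervals was 24800000 to 38600000 fragments per library. Naive markers followed the labels: the summed FPKM of 6 was 162 to 308 in mESC and 4.35 to 6.49 in mEpiSC. That of 4 markers shared by both states was 746 to 865 and 541 to 922. The sums of 6 primed epiblast markers overlapped, at 108 to 263 in mESC and 129 to 422 in mEpiSC. Of these 6, 3 were higher in mEpiSC and 0 lower. A sum of 5 trophoblast markers was 13.2 to 16.3 in mESC and 3.26 to 10.1 in mEpiSC, with 1 of 2 tested markers lower in mEpiSC. That marker, Tfap2c, was at 12.2 to 14.4 FPKM in mESC and so made up most of the sum there. Krt7, the other tested marker, averaged 0.773 FPKM in mESC and 2.53 FPKM in mEpiSC and was not called. Cdx2, Elf5 and Hand1 stayed at or below 0.615 FPKM in every library. Markers of other cells also moved with state. The sum of 18 fibroblast markers was 312 in mESC 1 and 12.2 to 61.8 in mESC 2 to 4, against 590, 331, 204 and 104 in mEpiSC 1 to 4. Of these 18 markers 15 were tested and 6 were higher in mEpiSC, and Fap was the marker listed at 0 in a library. A sum of 7 primitive endoderm markers was 3.44 to 6.99 in mESC and 115, 32.5, 38.5 and 19.3 in mEpiSC 1 to 4, with all 5 tested markers higher in mEpiSC. A sum of 4 mesendoderm markers was 45.8 in mESC 2, 3.57 to 5.04 in the other mESC libraries and 36.4 to 112 in mEpiSC. The part of these cells in the results was not tested beyond a fit with the fibroblast level as a covariate, in which 17 members rose and 0 fell. In such bulk RNA, fewer cells of a type and less RNA per cell cannot be told apart.

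Sequence before a RefSeq transcript start is shown for the 2 most increased glypicans, which are neighbours, and for Chst1, the most increased member. The 250 bases before the RefSeq transcript start (mouse build GRCm38.p6) are printed 5′ to 3′ on the gene's strand for Gpc3, Gpc4 and Chst1, with each CG dinucleotide in capitals. The windows are chrX:52613975-52614224 on the minus strand for Gpc3, chrX:52164924-52165173 on the minus strand for Gpc4, and chr2:92600867-92601116 on the plus strand for Chst1.
Gpc3: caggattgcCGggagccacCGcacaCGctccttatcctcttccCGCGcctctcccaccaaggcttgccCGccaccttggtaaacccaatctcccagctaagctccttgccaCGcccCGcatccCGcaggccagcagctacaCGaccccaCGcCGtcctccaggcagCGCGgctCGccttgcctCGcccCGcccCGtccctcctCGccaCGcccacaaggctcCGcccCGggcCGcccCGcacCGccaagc
Gpc4: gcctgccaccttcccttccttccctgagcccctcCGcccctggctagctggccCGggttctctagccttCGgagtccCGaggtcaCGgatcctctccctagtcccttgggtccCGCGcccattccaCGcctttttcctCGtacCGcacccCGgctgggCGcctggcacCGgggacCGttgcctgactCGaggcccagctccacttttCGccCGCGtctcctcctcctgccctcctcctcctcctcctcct
Chst1: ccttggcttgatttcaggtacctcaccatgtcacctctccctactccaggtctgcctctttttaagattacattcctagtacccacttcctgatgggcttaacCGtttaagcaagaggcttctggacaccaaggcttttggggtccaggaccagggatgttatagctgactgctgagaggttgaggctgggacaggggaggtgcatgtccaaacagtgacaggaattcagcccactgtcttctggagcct
The Gpc3 window held 25 CG dinucleotides and was 71.6% G or C, and the Gpc4 window held 18 and was 68.4% G or C. The Chst1 window held 1 and was 51.6% G or C. If the mm9 to GRCm38 shift of the nearby Ext2 holds for Chst1, that window lies inside the measured Chst1 locus, not before it. Whether it is a promoter in use was not tested, so its contrast with Gpc3 and Gpc4 is not read. Among 32851 promoters of 27025 genes, 90.4% held no more CG dinucleotides than Gpc3, 80.3% no more than Gpc4 and 18.8% no more than Chst1. RefSeq windows were matched for 43 of the 55 members (48 windows), with a median of 16 CG dinucleotides against 6 over all promoters. The letters GGGCGG, searched on both strands, were in 66.7% of the member windows and 32.7% of all windows, and TATAAA, searched likewise, in 6.25% and 12.4%.

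Of the 55 members, 34 reached 1 FPKM in at least 4 libraries and were tested between states with limma on log2(FPKM + 1), at a Benjamini-Hochberg adjusted p under 0.05. Fold changes below are mEpiSC minus mESC on that scale, which understates changes of low genes. With a pseudocount of 5 in place of 1, the change was over 1.5 times smaller for Gpc2 (0.79), Gpc6 (0.62), Sdc3 (0.73), Extl2 (0.55), Ndst2 (0.44), Hs3st3b1 (0.61), Chst1 (2.17), Chst14 (0.58), Chst15 (1.44) and Chst2 (0.18). With 0.1 it was over 1.5 times larger for Gpc6 (2.30), Hs3st3b1 (2.39) and Chst2 (1.11). Of the 34, 21 rose in mEpiSC, where 23.1% of all 11556 tested genes did, and Sulf2 alone fell, where 14.2% of all genes did. A change of at least 2-fold was found upward for 12 members (9.93% of all genes) and downward for 0 (5.19% of all genes). At an unadjusted p under 0.05, 0 members were at least 2-fold lower as well, and a limma-voom fit on implied fragments gave 0. The FPKM ranges of the states did not overlap for 23 members that were higher in mEpiSC (22.2% of all genes) and for 1 that was lower (14.9%). The 95% intervals of 13 members excluded a 2-fold change in either direction, as those of 62.2% of all genes did. The median log2 fold change was 0.77 over the tested members and 0.08 over all genes. With median ratio scaling or quantile normalization of the libraries, the median of all genes moved to -0.01 or -0.02, the share of calls that were higher moved from 61.9% to 51.0% or 49.8%, and 19 members rose under either. The filter enters these counts: 10 of the 34 members were at 1 FPKM or more in all mEpiSC but not all mESC libraries (Chst1, Chst2, Chst7, Chst11, Chst14, Chst15, Gpc6, Hs3st3b1, Sdc3 and Ust), against Chst10 with the reverse pattern, so the members that passed are no fair sample of the 55. Among the 23 members at 1 FPKM or more in all 8 libraries, 14 rose. The share of all genes at that level that rose was not computed, so this count is a description.

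**Figure D1:**
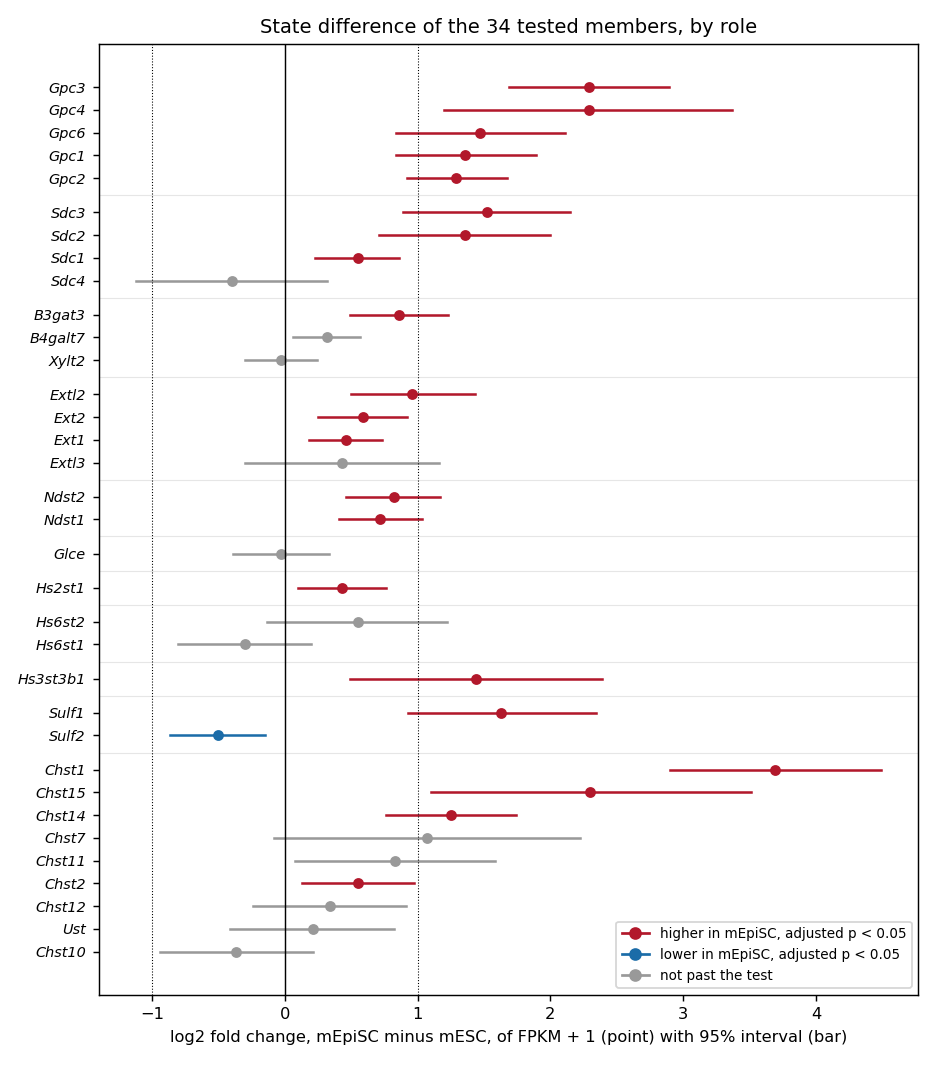
Log2 fold change of each of the 34 tested members, mEpiSC minus mESC on log2(FPKM + 1), with its 95% interval, grouped by role from core proteins at the top to other sulfotransferases at the bottom. Red marks the 21 members that rose, blue the 1 that fell (Sulf2), and grey the 12 that did not pass; Chst1 lies farthest to the right, at 3.69.

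The tested glypicans all rose. All 5 of the 6 glypicans that were tested were higher in mEpiSC by at least 2-fold, where 9.93% of all genes were. In none of the 5 did the states overlap, where 22.2% of all genes were higher without overlap. Gpc3 (mm9, X: 49625604 to 49967151), the glypican whose loss causes an overgrowth syndrome in humans, was at 20.2, 22.5, 18.3 and 22.0 FPKM in mESC 1 to 4 and at 147, 57.2, 112 and 130 FPKM in mEpiSC 1 to 4. Every mEpiSC library was above every mESC library, and mEpiSC 2 was the lowest of its state although its sister library of the same line was at 112. Gpc3 rose from 20.7 ± 1.93 to 112 ± 39.0 FPKM (mean ± SD, n = 4 each), a log2 fold change of 2.29 (SE 0.27, adjusted p = 0.00042, limma), and had the highest mean of any member in mEpiSC, although Sulf1 was above it in mEpiSC 2.

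Gpc4 (mm9, X: 49406195 to 49518100), a glypican of the early embryo that binds FGF and Wnt ligands through its chains, was at 8.81, 9.15, 8.82 and 6.30 FPKM in mESC and at 132, 33.6, 42.2 and 19.4 FPKM in mEpiSC. The groups did not overlap, and EpiSC5 was far above the other primed lines. The mean went from 8.27 ± 1.33 to 56.7 ± 50.8 FPKM, a log2 fold change of 2.29 (SE 0.48, adjusted p = 0.0061, limma), and 1.58 (adjusted p = 0.047) with the fibroblast covariate. Gpc4 lies next to Gpc3 on the X chromosome, 108 kb apart with 0 listed genes between them. The Gpc3 to Gpc4 ratio of FPKM was 2.07 to 3.49 in mESC, while in mEpiSC it ran from 1.12 in EpiSC5 to 6.71 in EpiSC9, so the neighbours did not keep 1 ratio across the primed lines.

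Gpc1 was at 10.0, 14.2, 5.50 and 8.18 FPKM in mESC and at 25.5, 24.3, 27.1 and 22.2 FPKM in mEpiSC, an even level across the primed lines. Its log2 fold change was 1.36 (SE 0.23, adjusted p = 0.0024, limma). Gpc2, a glypican best known from developing neurons, was at 2.67, 3.37, 3.33 and 2.74 FPKM in mESC and at 10.8, 7.76, 10.5 and 6.92 FPKM in mEpiSC, with no overlap. It rose by 1.29 (SE 0.17, adjusted p = 0.00068, limma), but 88.2% of its 50-base transcript windows occur in another annotated gene, Gm43720, so its value is uncertain. Gpc6, a long gene of chromosome 14, was at 0.63, 1.48, 0.43 and 0.47 FPKM in mESC and at 4.08, 2.26, 3.09 and 6.49 FPKM in mEpiSC. It rose by 1.47 (SE 0.28, adjusted p = 0.0039, limma), and passed the filter through the mEpiSC libraries. Gpc5, its neighbour at a gap of 400 kb with 0 listed genes between them, stayed between 0 and 0.12 FPKM in all 8 libraries and was not tested.

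The syndecans rose less evenly: 3 of 4 passed the test as higher, where 23.1% of all genes did. Sdc1, the syndecan of epithelia and plasma cells, was at 14.6, 16.4, 13.8 and 20.1 FPKM in mESC and at 23.6, 22.5, 22.8 and 27.1 FPKM in mEpiSC. The states did not overlap and the change was small, 0.55 (SE 0.14, adjusted p = 0.014, limma; 0.061 with cell line as a random block). Sdc2 was at 6.96, 7.80, 4.39 and 2.94 FPKM in mESC and at 17.2, 11.1, 12.5 and 20.6 FPKM in mEpiSC, a rise of 1.36 (SE 0.29, adjusted p = 0.0061, limma). Sdc3, the syndecan of neural tissue, was at 2.83, 1.09, 0.98 and 0.63 FPKM in mESC and at 7.07, 5.33, 6.20 and 3.74 FPKM in mEpiSC, a rise of 1.52 (SE 0.28, adjusted p = 0.0033, limma), and of 0.95 (adjusted p = 0.01) with the fibroblast covariate. For Sdc3 the highest mESC value was in mESC 1, the mESC library with the highest fibroblast sum. Sdc3 was at 1 FPKM or more in all mEpiSC but not all mESC libraries, so the filter favoured it.

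Sdc4, the syndecan of focal adhesions, behaved differently. It was at 26.7, 17.8, 35.1 and 16.6 FPKM in mESC and at 12.6, 16.4, 13.4 and 31.2 FPKM in mEpiSC. The states overlapped through mEpiSC 4, which was above 3 of the 4 mESC libraries. The log2 fold change was -0.40 (95% interval -1.12 to 0.32, adjusted p = 0.36, limma). With replicates 1 to 3 alone it was -0.82 (adjusted p = 0.029), so the libraries mESC 4 and mEpiSC 4 decide whether Sdc4 is called.

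**Figure D2:**
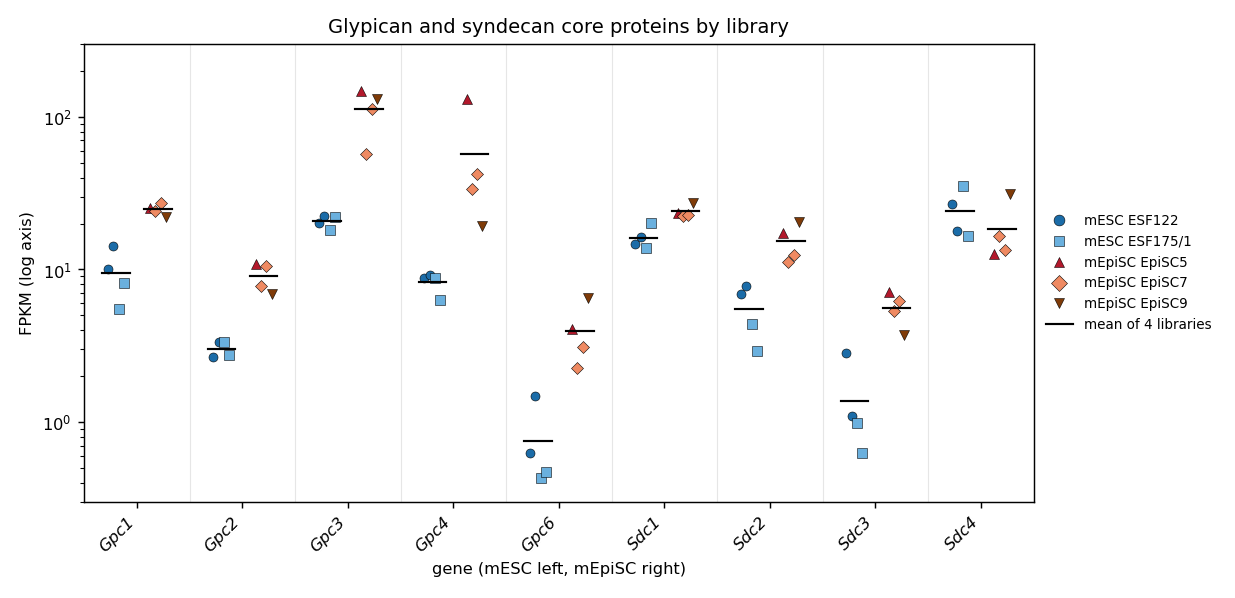
FPKM of the 9 tested core proteins (log axis) in each library, with mESC at the left and mEpiSC at the right of each gene, symbols by cell line and a bar at the mean of 4 libraries. The states are separate for all but Sdc4, and Gpc4 spreads most among the mEpiSC lines, from 19.4 to 132.

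With these changes the make-up of core protein RNA shifted toward glypicans. The summed FPKM of the 10 core genes was 80.0 to 93.9 in mESC and 181 to 379 in mEpiSC, and the glypican share of it was 40.2% to 54.1% in mESC and 69.1% to 84.1% in mEpiSC. Gpc3 and Gpc4 together made up 29.9% to 35.3% of the sum in mESC and 50.3% to 73.4% in mEpiSC. The syndecan sum itself was 40.3 to 54.2 FPKM in mESC and 54.8 to 82.7 FPKM in mEpiSC, so the ranges met closely without overlap. Sdc4 took 18.9% to 38.7% of core RNA in mESC and 3.31% to 11.6% in mEpiSC. The most abundant core gene was Sdc4 in mESC 1 and 3, Gpc3 in mESC 2 and 4, and Gpc3 in all 4 mEpiSC libraries.

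**Figure D3:**
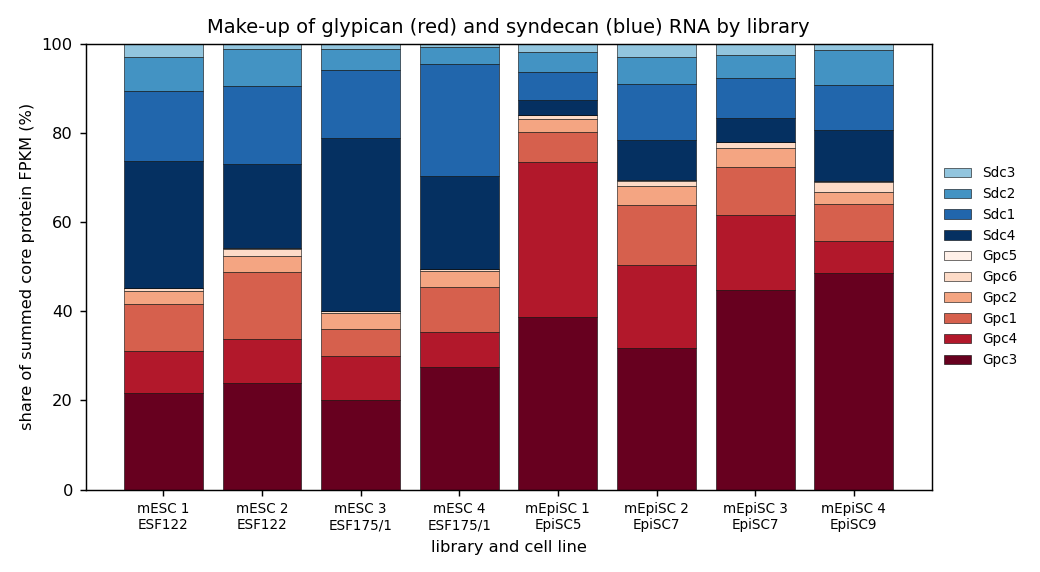
Share of the summed FPKM of the 10 core protein genes (percent, stacked to 100) in each library, glypicans in red and syndecans in blue. The red part is 40.2% to 54.1% in the mESC libraries and 69.1% to 84.1% in the mEpiSC libraries, and EpiSC5 has the broadest Gpc4 band (34.7%).

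Of the enzymes that make, sulfate and edit the chain, Sulf2 fell and 9 others rose, mostly by less than 2-fold. Of 28 such genes (linkage, polymerization, sulfation, epimerization, editing and cleavage), 16 were tested, 9 rose (23.1% of all genes did) and 1 fell (14.2% of all genes), with a median log2 fold change of 0.50. For the 10 core genes, 9 were tested, 8 rose and the median was 1.36; the difference between these medians was not tested. In the linkage region, Xylt2, which starts the linker with xylose, was at 6.63, 6.36, 7.07 and 7.0 FPKM in mESC and 5.68, 6.71, 6.84 and 7.25 FPKM in mEpiSC. The groups overlapped and the interval of the log2 fold change was narrow, -0.30 to 0.24 (adjusted p = 0.86, limma). B4galt7, which adds the next sugar, was at 4.17, 4.39, 4.46 and 4.6 FPKM in mESC and 5.42, 5.57, 5.99 and 5.93 FPKM in mEpiSC; the groups did not overlap, but the difference of 0.32 (SE 0.11) missed the threshold (adjusted p = 0.051). B3gat3, which closes the linker with glucuronic acid, was at 7.32, 8.49, 6.98 and 8.58 FPKM in mESC and 15.5, 11.5, 14.4 and 19.6 FPKM in mEpiSC. It was the linkage enzyme that rose, by 0.86 (SE 0.16, adjusted p = 0.0039, limma). Xylt1, the other xylosyltransferase, was at 0.30 to 0.47 FPKM in mESC and 0.82 to 1.30 FPKM in mEpiSC and was not tested; in a fit with no filter on low values its log2 fold change was 0.53 (adjusted p = 0.013).

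Ext1 and Ext2 form the polymerase of the chain. Ext1 was at 13.7, 11.5, 11.1 and 12.6 FPKM in mESC and 16.8, 15.6, 16.5 and 19.7 FPKM in mEpiSC, and Ext2 at 10.1, 11.4, 7.84 and 10.8 and at 14.5, 14.2, 14.5 and 18.9 FPKM. Neither gene's groups overlapped, and both rose modestly, Ext1 by 0.46 (SE 0.12, adjusted p = 0.017) and Ext2 by 0.59 (SE 0.15, adjusted p = 0.014, limma). The Ext1 call was lost without mESC 3 (adjusted p = 0.054), with cell line as a random block (0.054) and with the fibroblast covariate (0.055). The Ext1 to Ext2 ratio of FPKM stayed close to even, 1.01 to 1.41 in mESC and 1.04 to 1.15 in mEpiSC. Extl2, which can cap a nascent chain, was at 2.67, 4.49, 2.04 and 2.83 FPKM in mESC and 6.93, 5.55, 5.88 and 8.52 FPKM in mEpiSC, a rise of 0.96 (SE 0.21, adjusted p = 0.0066, limma). Extl3, which adds the sugar that commits the linker to heparan sulfate, was at 8.52, 8.70, 8.49 and 10.3 FPKM in mESC and 23.7, 6.86, 9.0 and 16.0 FPKM in mEpiSC. EpiSC5 and EpiSC9 were above all mESC libraries, whereas the EpiSC7 libraries fell within or below the mESC range. Its state difference was 0.43 (SE 0.32, adjusted p = 0.33, limma). In a fit with 1 mean per cell line it was 0.63 (adjusted p = 0.0074, limma). The error of that fit holds only the spread within lines, not the disagreement between EpiSC7 and the other primed lines. Extl1 was at or below 0.98 FPKM in every library.

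Among the N-deacetylase/N-sulfotransferases, which open the way for all later sulfation, Ndst1 was at 4.79, 5.59, 5.22 and 4.4 FPKM in mESC and 9.61, 8.38, 10.3 and 7.42 FPKM in mEpiSC. Ndst2 was at 2.32, 3.52, 2.25 and 2.32 FPKM in mESC and 5.80, 5.50, 5.47 and 4.46 FPKM in mEpiSC. Both were higher in every mEpiSC library than in any mESC library and rose by a similar amount, Ndst1 by 0.72 (SE 0.14) and Ndst2 by 0.82 (SE 0.16, adjusted p = 0.0039 for each, limma). The Ndst1 to Ndst2 ratio of FPKM was 1.59 to 2.32 in mESC and 1.52 to 1.89 in mEpiSC. Ndst3 and Ndst4 stayed at or below 0.0774 FPKM, and Ndst4 was listed at 0 in all mESC libraries.

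Genes of epimerization, 2-O-sulfation and 6-O-sulfation changed little or not detectably, although the interval of Hs6st2 did not exclude a 2-fold rise. Glce, the epimerase that turns glucuronic into iduronic acid, was at 7.89, 8.95, 7.89 and 8.68 FPKM in mESC and 11.2, 7.21, 6.54 and 8.28 FPKM in mEpiSC, overlapping, with an interval of -0.39 to 0.33 on the log2 scale (adjusted p = 0.90, limma). Hs2st1, the single uronyl 2-O-sulfotransferase of the pathway, was at 9.66, 12.3, 9.16 and 11.1 FPKM in mESC and 13.5, 12.8, 14.0 and 18.1 FPKM in mEpiSC. It rose by 0.43 (SE 0.15, adjusted p = 0.043, limma), a call that was lost in 13 of 20 alternative fits, among them both scalings (adjusted p = 0.064 and 0.082) and every fit without 1 library except that without mESC 2 (0.055 to 0.12 in the others). The 6-O-sulfotransferase Hs6st1 was at 25.2, 19.3, 21.9 and 18.2 FPKM in mESC and 19.3, 13.0, 25.4 and 12.6 FPKM in mEpiSC, with overlap and an interval of -0.80 to 0.20 (adjusted p = 0.32). Hs6st2 was at 5.96, 7.14, 3.79 and 1.92 FPKM in mESC and 6.77, 7.18, 5.48 and 7.81 FPKM in mEpiSC, with overlap through the ESF122 libraries and an interval of -0.13 to 1.22 (adjusted p = 0.18). Hs6st2 lies 371 kb from Gpc4, with 2 listed genes between them.

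The 3-O-sulfotransferases add the rarest modification, which makes sites for antithrombin and a few other proteins. Of 7 genes, Hs3st3b1 (mm9, 11: 63698195 to 63735786) was tested. It was at 0.31, 0.27, 0.55 and 1.01 FPKM in mESC (74 to 188 implied fragments) and at 8.74, 1.45, 3.76 and 1.45 FPKM in mEpiSC (344 to 2658 fragments). The groups did not overlap, but mESC 4 and the lowest mEpiSC libraries were close, and EpiSC5 was far above the rest. The log2 fold change was 1.44 (SE 0.42, adjusted p = 0.026, limma), a call lost in 7 of 19 alternative fits, among them cell line as a random block (adjusted p = 0.062) and the fibroblast covariate (adjusted p = 0.13), and those without mESC 1, 2 or 3 or mEpiSC 3 (0.059 to 0.066). Its close relative and neighbour Hs3st3a1 shares 8.56% of the 50-base windows of Hs3st3b1, and was at 0 to 4.0 implied fragments in mESC and 18.1 to 73.7 in mEpiSC. The other 5 genes were at or below 0.37 FPKM in every library, except Hs3st6 at 0.33 to 1.38 FPKM.

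Enzymes that edit the finished chain outside the cell moved in opposite directions. Sulf1 and Sulf2 are endosulfatases that remove 6-O-sulfates from heparan sulfate at the cell surface. Sulf1 (mm9, 1: 12682511 to 12850453) was at 23.9, 34.2, 12.4 and 12.1 FPKM in mESC and 61.8, 67.7, 65.6 and 48.4 FPKM in mEpiSC. All mEpiSC libraries were above all mESC libraries, and the ESF122 libraries lay above the ESF175/1 libraries. Sulf1 rose by 1.63 (SE 0.31, adjusted p = 0.0039, limma), and it kept this call in all 20 alternative fits. Sulf2 (mm9, 2: 165899399 to 165981183), the member with the highest mean in mESC (Sdc4 was above it in mESC 3), was at 34.9, 34.6, 34.3 and 34.4 FPKM there and at 21.9, 18.4, 26.4 and 31.3 FPKM in mEpiSC. Its mESC values were almost equal while mEpiSC 4 came near them, and Sulf2 fell by 0.50 on the log2 scale (SE 0.16, adjusted p = 0.033, limma). This call was lost in 10 of 20 alternative fits, among them 7 of the 8 that left out 1 library, cell line as a random block (adjusted p = 0.12) and the fibroblast covariate (adjusted p = 0.18). The Sulf1 to Sulf2 ratio of FPKM was 0.351 to 0.99 in mESC and 1.54 to 3.67 in mEpiSC, so Sulf2 led in every mESC library and Sulf1 in every mEpiSC library. Their sum was 46.4 to 68.8 and 79.7 to 92 FPKM. Hpse, the heparanase that cuts the chain, was at or below 0.39 FPKM in every library.

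**Figure D4:**
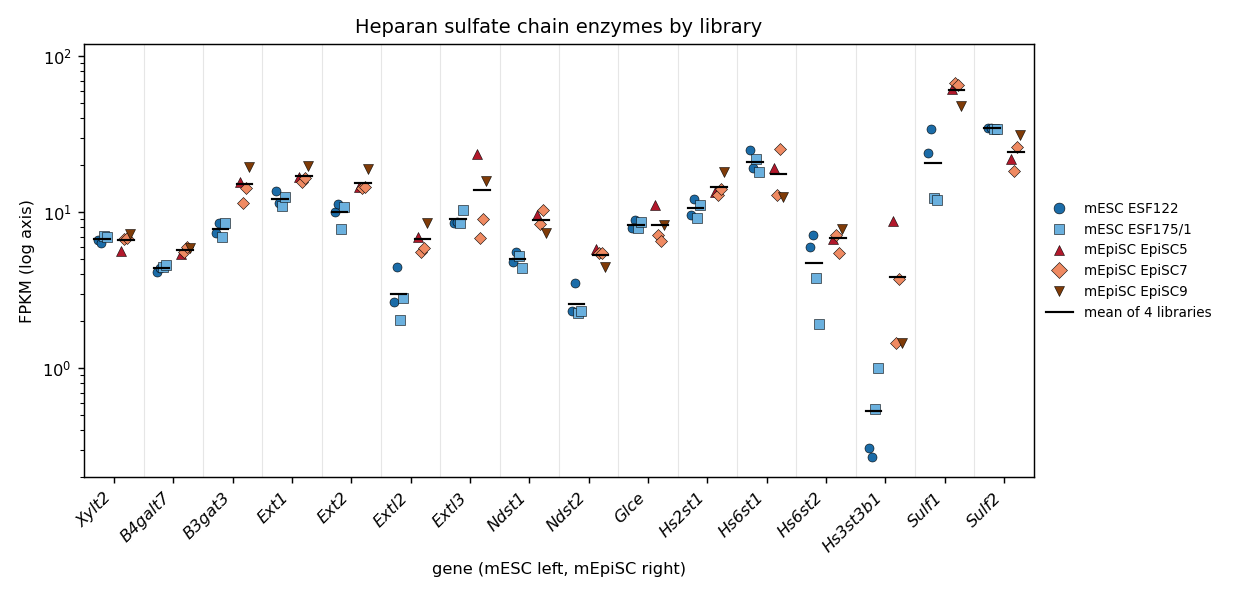
FPKM of the 16 tested heparan sulfate chain enzymes (log axis) in each library, ordered along the pathway from Xylt2 to Sulf2, with symbols by cell line and a bar at the mean of 4 libraries. Xylt2, Extl3, Glce, Hs6st1 and Hs6st2 overlap between states, while Sulf1 and Sulf2 exchange places: Sulf1 averages 20.6 and then 60.9, Sulf2 34.5 and then 24.5.

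The largest change of any member was in the sulfotransferases outside the heparan sulfate pathway. Of 15 such genes, 9 were tested and 4 rose, where 23.1% of all genes did. All 4 (Chst1, Chst2, Chst14 and Chst15) were at 1 FPKM or more in all mEpiSC but not all mESC libraries, so the filter favoured them and the count is a description. Chst1 (mm9, 2: 92439864 to 92455409), which sulfates galactose in keratan sulfate, was at 1.2, 0.84, 0.29 and 0.39 FPKM in mESC (31 to 128 implied fragments) and at 13.2, 23.1, 40.7 and 13.3 FPKM in mEpiSC (1831 to 3935 fragments). No library was near the other state, and both EpiSC7 libraries were above EpiSC5 and EpiSC9. Chst1 rose from 0.679 ± 0.417 to 22.6 ± 13.0 FPKM, by 3.69 (SE 0.35, adjusted p = 0.00017, limma), and moved from rank 33 to rank 7 among the 55 members by mean level. It kept the call in all 20 alternative fits, with log2 fold changes of 2.17 to 5.01.

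Chst15 (mm9, 7: 139427938 to 139508838), which adds the second sulfate of chondroitin sulfate E, was at 1.32, 4.03, 0.77 and 2.62 FPKM in mESC and 41.4, 11.4, 11.0 and 5.98 FPKM in mEpiSC. The groups did not overlap, and EpiSC5 was far above the other primed lines. It rose by 2.30 (SE 0.53, adjusted p = 0.0095, limma). In mEpiSC its order by library was that of the fibroblast marker sum. It was also that of the primed epiblast sum, which was 422, 290, 277 and 129 FPKM in mEpiSC 1 to 4. With the fibroblast covariate the change was 1.96 (adjusted p = 0.063), and the primed epiblast sum was not tested as a covariate.

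Chst14, the dermatan 4-O-sulfotransferase, was at 1.61, 1.58, 0.86 and 0.84 FPKM in mESC and 4.64, 3.10, 3.50 and 6.09 FPKM in mEpiSC. The groups did not overlap, and it rose by 1.25 (SE 0.22, adjusted p = 0.0025, limma). Chst2, which sulfates N-acetylglucosamine, was at 0.33 to 1.19 FPKM in mESC and 1.31 to 1.54 FPKM in mEpiSC. Its rise of 0.55 (SE 0.19, adjusted p = 0.044) was lost in 16 of 19 alternative fits, among them the replicate block (adjusted p = 0.061). Chst11, a chondroitin 4-O-sulfotransferase, was at 0.84 to 2.35 FPKM in mESC and 1.98 to 5.96 FPKM in mEpiSC, 0.83 (SE 0.33, adjusted p = 0.077), and passed with the replicate block (adjusted p = 0.044). Chst7, a chondroitin 6-O-sulfotransferase, was at 0.64, 0.87, 0.38 and 0.44 FPKM in mESC and 1.01, 1.30, 1.23 and 10.5 FPKM in mEpiSC. The groups did not overlap, but EpiSC9 alone was high: the state difference was 1.07 (SE 0.51, adjusted p = 0.13, limma), and 0.47 (adjusted p = 0.038) without that library. Chst10, Chst12 and Ust overlapped between states, with log2 fold changes of -0.37, 0.34 and 0.21 (adjusted p = 0.29, 0.34 and 0.59).

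**Figure D5:**
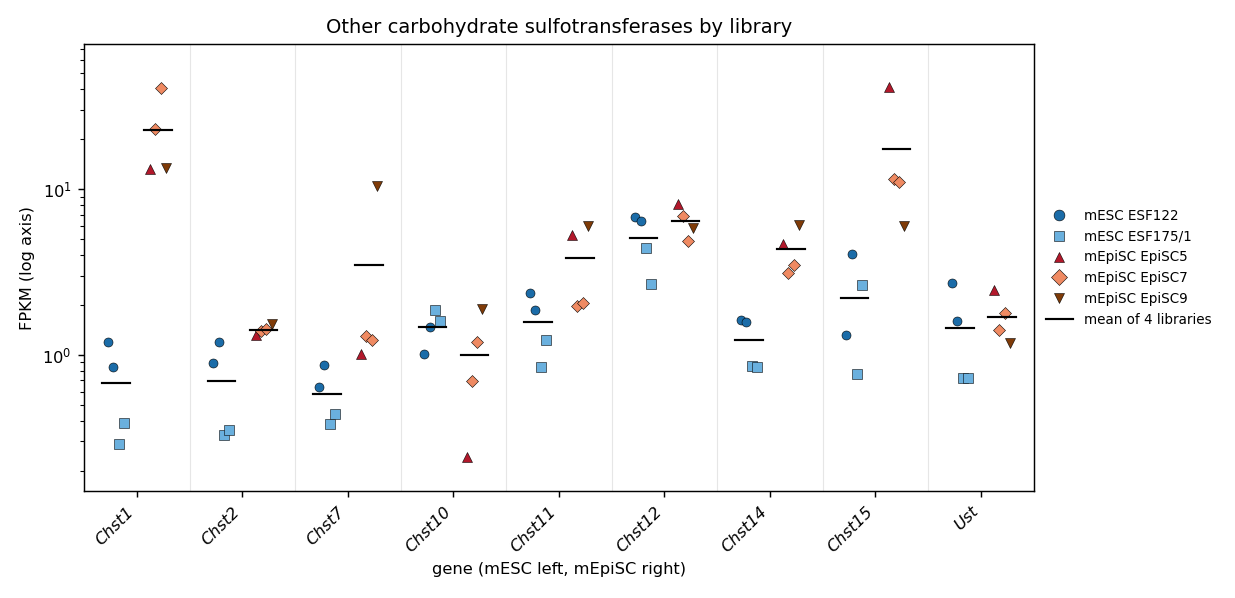
FPKM of the 9 tested sulfotransferases outside the heparan sulfate pathway (log axis) in each library, with symbols by cell line and a bar at the mean of 4 libraries. Chst1 shows the widest gap between states, Chst15 is highest in EpiSC5 (41.4) and Chst7 in EpiSC9 (10.5).

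Of the 21 members that were not tested, 17 never reached 1 FPKM, and Xylt1, Chst3, Chst5 and Hs3st6 reached it in 1 or 2 libraries. A few of the low genes were nevertheless unevenly spread. Hs6st3, a 6-O-sulfotransferase, was at 16, 37, 7 and 4 implied fragments in mESC and 1, 1, 0 and 1 in mEpiSC. Hs3st4, a 3-O-sulfotransferase, was at 19, 34, 12 and 12 in mESC and 0, 1, 1 and 8 in mEpiSC. These groups did not overlap, and in the fit with no filter Hs3st4 had a log2 difference of -0.16 (adjusted p = 0.007) and Hs6st3 of -0.20 (adjusted p = 0.042), both from values near the limit of detection. Chst3, a chondroitin 6-O-sulfotransferase, was at 0.20 to 0.60 FPKM in mESC and 0.61 to 3.35 FPKM in mEpiSC (0.88, adjusted p = 0.059, in that fit). B3gat1, a glucuronyltransferase of the HNK-1 epitope, was at 134 implied fragments in EpiSC5 and 8 to 22 in the other 7 libraries. B3gat2 was at 0.23 to 0.68 FPKM with overlap, and it shares its locus with Smap1, which reached 29.0 FPKM.

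Few members passed a test between lines within a state, and with 1 or 2 libraries per line a difference can be missed. Between ESF175/1 and ESF122, 0 of the 34 tested members passed in the limma fit with 1 mean per line, where 0.762% of all genes did; 9 members had an unadjusted p under 0.05. By point estimate 26 of the 34 were lower in ESF175/1, against 53.0% of all genes, with a median log2 difference of -0.22 over members and -0.02 over all genes. Sulf1 came closest, at -1.17 (adjusted p = 0.058, and 0.046 with quantile normalization). In ESF122 the library mESC 2 held the highest mESC value of 14 of the 21 members that rose in mEpiSC. The same share over all genes that rose is not given, so the count cannot be called specific to the members. The library mESC 2 also had the highest mesendoderm sum of the mESC libraries, and a link was not tested. Among EpiSC5, EpiSC7 and EpiSC9, an F test found 3 of 34 members, where 2.60% of all genes passed: Gpc4 (adjusted p = 0.018), Extl3 (adjusted p = 0.041) and Chst7 (adjusted p = 0.0091). EpiSC5 and EpiSC9 are 1 library each, so their spread was taken from the lines with 2. The Chst7 call was absent without the EpiSC9 library (adjusted p = 0.88). For Gpc4, leaving out an ESF122 library gave an adjusted p of 0.055 in either case, leaving out EpiSC5 gave 0.092 and leaving out mEpiSC 2 gave 0.05, so the call rests on these libraries. For Extl3, the call was lost when any of 5 libraries (both of ESF122, EpiSC5, both of EpiSC7) was left out, with adjusted p of 0.077 to 0.15.

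Genes of the same pathway outside the name rule gave a mixed picture. Of 54 such genes 43 were tested, 19 rose (23.1% of all genes did) and 2 fell (14.2% of all genes), with a median log2 fold change of 0.47 against 0.08 over all genes. The shares by role are read against the same background, and that of the sugar nucleotide genes was below it. In the supply of activated sulfate 3 of 7 rose, among them Papss1, a synthase of the sulfate donor PAPS (1.29, SE 0.24, adjusted p = 0.0038), and Impad1, the Golgi phosphatase that clears its by-product (1.12, SE 0.12, adjusted p = 0.00034), while the cytosolic phosphatase Bpnt1 fell by 0.43 (SE 0.14, adjusted p = 0.041). In the supply of sugar nucleotides 1 of 7 rose, Ugp2 (0.64, adjusted p = 0.013), and among other linkage genes Fam20b, the xylose kinase (0.73, adjusted p = 0.005). For chondroitin and dermatan chains 3 of 6 rose, Chpf2 (1.11), Dsel (0.97) and Chsy1 (0.77, adjusted p of 0.0018 to 0.013), and the epimerase Dse fell by 0.58 (SE 0.18, adjusted p = 0.035). Of 10 tested genes for other core proteins, 4 rose, among them Vcan (1.99), Tgfbr3 (1.67) and Cd44 (1.56, adjusted p of 0.00057 to 0.017). Vcan and Cd44 are also abundant in fibroblasts, whose marker sums are given above. In mEpiSC 1 to 4 Vcan was at 18.4, 15.1, 19.7 and 18.6 FPKM and Cd44 at 7.03, 3.47, 4.3 and 5.81 FPKM. Neither had the order of the fibroblast sum there. In mESC 1 to 4 Vcan did have that order, at 5.49, 4.06, 4.59 and 1.79 FPKM. The source of these RNAs was not tested. In lysosomal breakdown 7 of 10 rose, led by Naglu (1.36, adjusted p = 0.0021), Ids (1.00, adjusted p = 0.0037) and Gusb (0.80, adjusted p = 0.0049).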

How the data were processed

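Polyadenylated RNA of 8 libraries was prepared with an Illumina TruSeq kit, per the labels' protocols. The authors deposited 1 table per library with FPKM per gene and the bounds of its interval, produced by TopHat2 (version 2.0.6) and Cufflinks (version 2.0.2) against mm9, per the submitters' processing notes. The sources used here do not give the annotation, options or strand use, so overlapping and antisense genes cannot be told apart. FPKM are not counts, so depth was inferred from the intervals, which imply whole fragments (within 0.05) for 80.3% to 81.2% of genes under 100 fragments. Symbols at several loci (248) were left out. 0 columns of per-sample values went unused.

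Samples were grouped by the labels. limma 3.58.1 (trend and robust, statmod 1.5.0, R 4.3.3) was run on log2(FPKM + 1) of the 11556 genes that reached 1 FPKM in 4 or more libraries, with Benjamini-Hochberg adjustment over all of them. Lines were compared with 1 mean per line. In that fit, also an alternative for the state comparison, the error was the spread between libraries of a line. Differences between lines did not enter it, so lines were not its replicates. On simulated data with known changes in the state comparison (11373 genes in the fit), 74% of 2-fold and 95% of 4-fold changes were recovered. The changed genes were drawn only from those with a high mean level, so recovery for low members was not measured. The simulated noise was independent between libraries, whereas libraries of a line correlated at 0.47 in the random block fit. Whether the libraries of a line were grown separately is not labelled, and p-values therefore cover the spread between these libraries, which may be technical. Deviations of same-numbered libraries of the 2 states correlated at 0.22, 0.15, 0.18 and 0.51 for replicates 1 to 4. All were over the bound of 0.1. Pairs with unequal numbers reached at most 0.12, 0.21, 0.21 and -0.22. Replicates 2 and 3 thus matched a differently numbered library better, and the same-number match stood out most for replicate 4. A pairing by number is not in the labels and was not shown for all replicates. The fit with replicate number as a block was an alternative.

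Values by library were given for all core proteins at 1 FPKM, the main chain enzymes and all members changed at least 2-fold; other members by ranges, or singled out after a line comparison; up to 3 genes per role of the related list. A few low or unstable members were named after their values were seen. The members and lists were chosen with earlier results of these data known. Alternatives were 2 pseudocounts, 2 filters, 2 scalings, replicate or line blocks, line means, a fibroblast covariate, replicates 1 to 3, each library left out and, added after seeing the data, limma-voom on implied fragments. Listed starts are 0-based and were shifted to 1-based mm9 coordinates.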

Additional observations from a re-analysis of the deposited data

Results flagged for a closer look

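In 6 of the 68 groups of 4 libraries checked (34 members in 2 states), 1 library stood apart from the other 3 by more than Dixon's 95% critical value; chance flags about 1 group in 20. In mEpiSC, Chst15 was at 41.38 FPKM in EpiSC5 against 5.98 to 11.4 FPKM in the others. Chst7 was at 10.48 FPKM in EpiSC9 against 1.01 to 1.30 FPKM. Ext2 was at 18.89 FPKM in EpiSC9 against 14.2 to 14.5 FPKM. In mESC, Extl3 was at 10.34 FPKM in mESC 4 against 8.49 to 8.70 FPKM. Gpc4 was at 6.30 FPKM in mESC 4 against 8.81 to 9.15 FPKM. Ndst2 was at 3.52 FPKM in mESC 2 against 2.25 to 2.32 FPKM.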

How the results depend on the processing

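Over 20 alternatives, 669 values of the 34 tested members were recomputed: 609 stayed on the same side of the threshold, 51 lost and 9 gained the call, and 0 called values reversed. Of the 21 members that rose, 15 kept the call in every alternative they entered; Chst2, Hs2st1, Hs3st3b1, Chst15, Ext1 and Sdc1 lost it in at least 1. The count that rose was 14 (of 23 tested) with a mean of at least 5 FPKM. It was 16 with cell line as a random block and 17 with the fibroblast covariate. With 1 mean per line it was 25, but the error of that fit leaves out differences between lines. With the replicate block it was 21, with Chst11 gained and Chst2 lost, and no other member changed its call in that fit. The count that fell (1) was 3 with no filter, 2 with replicates 1 to 3, and 0 with the random block, the fibroblast covariate or limma-voom. Members at least 2-fold higher went from 12 to 6 with a pseudocount of 5. Related genes that rose went from 19 to 10 with the 5 FPKM filter, and those that fell from 2 to 0 with the random block. Members called between mESC lines went from 0 to 1 with quantile normalization, and among mEpiSC lines from 3 to 6 with a pseudocount of 5. Leaving out 1 library gave 17 to 20 members higher, 0 to 1 lower, 11 to 13 at least 2-fold higher and 0 to 0 lower by that much, 15 to 21 related genes higher and 0 to 2 lower, 0 to 4 members between mESC lines and 1 to 5 among mEpiSC lines; the 4 between mESC lines, without mESC 3, were Chst12, Hs6st2, Sdc2 and Sulf1. Fragment depth limits members under 1 FPKM, where values rest on few fragments.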
